A study of Mus musculus with 16 samples.

Results

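The cells described here were chosen by their raw counts of unique molecular identifiers (UMIs): at least 1 UMI of Xcr1 and Clec9a together, at least 5 of Cst3 and 5 of H2-Ab1, at most 1 of Ccr7 and of Cd79a, at most 2 of C1qa, C1qb and C1qc together, and 0 of Cd3e, Cd3d and Cd3g. This gate, meant for type 1 conventional dendritic cells (cDC1), held 358 of the 37609 barcodes in 16 droplet RNA libraries. The series profiled tumors of the MC38 colon carcinoma line and the spleens of the same C57BL/6 mice, either Aire+/+ or Aire-/-, that had been given anti-PD1 or an isotype antibody. Tissue was harvested on day 19 and sorted for CD45+ or for CD8+ cells, which gave 1 library for each combination of genotype, treatment, tissue and sort.

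Type 1 conventional dendritic cells take up material from dead cells and present it on MHC class I to CD8 T cells. They depend on the transcription factors IRF8 and BATF3, bind dead cells through CLEC9A, and carry the chemokine receptor XCR1. In the mouse spleen most of them bear the CD8 alpha chain, while their counterparts in other tissues carry the integrin CD103, encoded by Itgae.

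The tumor CD45+ libraries held 20, 21, 28 and 33 gated cells in Aire+/+ mice given isotype, Aire+/+ mice given anti-PD1, Aire-/- mice given isotype and Aire-/- mice given anti-PD1, and every list of 4 values below follows that order. The tumor CD8+ libraries held 20, 7, 5 and 2, the spleen CD45+ libraries 15, 7, 14 and 10, and the spleen CD8+ libraries 68, 47, 22 and 39. Most gated cells of the CD8+ sort therefore came from spleen, and most tumor ones from the CD45+ sort. The libraries held 10987970 to 38961020 UMIs in all. A gated cell had a median of 15775 to 19130 UMIs in the tumor CD45+ libraries, 12659 to 15676 in the tumor CD8+, 10318.5 to 12234 in the spleen CD45+ and 8724 to 11600.5 in the spleen CD8+ libraries. UMIs summed over the gated cells of a library ranged from 31352 to 904213, and 3 UMIs, the most that a count of 0 allows, corresponded to between 3.32 and 95.7 UMIs per 1000000 (CPM). Mice were pooled before sorting, so each condition had 1 library and no spread between mice was measured. For flow cytometry the study used enzymes on tumors and mechanical force on spleens. For these libraries the way of dissociation is not given in the sources used here, and such a difference, on which immediate early genes can depend, could not be told apart from tissue. Intervals and floors given here cover counting error only. Where a difference is given as at least some fold, the observed level was set against a floor of 3 UMIs over the other group. The counting error of the detected side is left out, so such a value is no confidence limit.

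No pair of libraries was free of shared barcodes: the 120 pairs had 2 to 18 barcode sequences in common, with a median of 7. The barcode of 16 gated cells was also present in another library, and 0 barcodes were gated cells in more than 1 library. Of the 358 gated cells, 86 sat at the threshold of 1 UMI of Xcr1 and Clec9a, and 1379 barcodes that met every other condition had 0. At the Cst3 threshold there were 4 cells inside and 1 just outside, and at the H2-Ab1 threshold 5 and 5. For Ccr7, Cd79a and the C1q genes, 10, 2 and 5 gated cells sat at the highest count allowed, and 0 barcodes were 1 UMI outside each. A single Cd3 UMI kept out 18 barcodes. Counts in other cells were used to look for free RNA. In B cells, 4101 of which were in spleen CD45+ and 9 in tumor libraries, 0 of 4148 had a UMI of Xcr1 or Clec9a, which allows a share of up to 0.0889% (95% exact Clopper-Pearson limit), at a median of 4409 UMIs. The limit for the 9 of tumor is 33.6%. Among T cells the share was 13 of 16029 (0.0811%) at a median of 6238 UMIs, with 1 of 1071 (0.0934%) in tumor CD45+ and 5 of 3990 (0.125%) in tumor CD8+ libraries, where 42 and 16 of the 86 cells at the threshold were. Gated cells were deeper, and after thinning to 3000 UMIs the shares were 0% of B cells and 0.0324% of T cells.

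The gate held more than a single kind of cell. Xcr1 was detected in 170 of the 358 gated cells (47.5%), and 188 were chosen on Clec9a alone. The 170 Xcr1 cells had a median of 346.5 Cst3 UMIs and 20 Irf8 UMIs, 97.1% of them had a UMI of Naaa, a lysosomal amidase listed as a cDC1 marker, 92.9% had Wdfy4, needed for cross-presentation, and 76.5% had Batf3. A further 66 cells had at least 2 UMIs of Siglech, the plasmacytoid dendritic cell (pDC) lectin, and 0 of these had Xcr1. They had a median of 31.5 Siglech, 52.5 Bst2, 37.5 Irf8 and 13.5 Cst3 UMIs, Klk1 was present in 86.4% and Ly6c2 in 95.5%, and Batf3 in 3.03%. Of the cells with neither Xcr1 nor 2 Siglech UMIs, 49 had Cd209a, a lectin of type 2 conventional dendritic cells (cDC2), and 73 did not. Cells of the Cd209a class had a median of 14 Cd209a and 44 Cst3 UMIs, 67.3% had Sirpa, 87.8% Naaa, 73.5% Irf8 and 51.0% Batf3. Because these marker profiles differed, the 358 are called gated cells here rather than cDC1.

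These classes were spread unevenly over the libraries. In the tumor CD45+ libraries 17 of 102 gated cells had Xcr1 and 85 were chosen on Clec9a alone. Of these 85, 8 had 2 or more Siglech UMIs, 28 had Cd209a without that, and 49 had neither. Of those 49 cells, 93.9% had Irf8, 87.8% Naaa, 79.6% Ppt1 and 38.8% Batf3, and 75.5% had the monocyte gene Ly6c2, 42.9% Lyz2 and 49.0% Sirpa. Of the 17 Xcr1 cells there, 94.1% had Naaa and Batf3, 47.1% Ly6c2, 35.3% Lyz2 and 0% Sirpa. In the tumor CD8+ libraries the Siglech class made up 29 of 34 (85.3%). The spleen CD45+ libraries had 20 Xcr1 cells of 46, with 7 of the Siglech and 15 of the Cd209a class. In the spleen CD8+ libraries 129 of 176 (73.3%) had Xcr1, and 22 were of the Siglech class. A stricter set, with at least 3 UMIs of Xcr1 and Clec9a and at most 1 of Siglech, held 198 cells: 42 in tumor CD45+, 5 in tumor CD8+, 28 in spleen CD45+ and 123 in spleen CD8+. It was defined after the data had been seen.

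**Figure D1:**
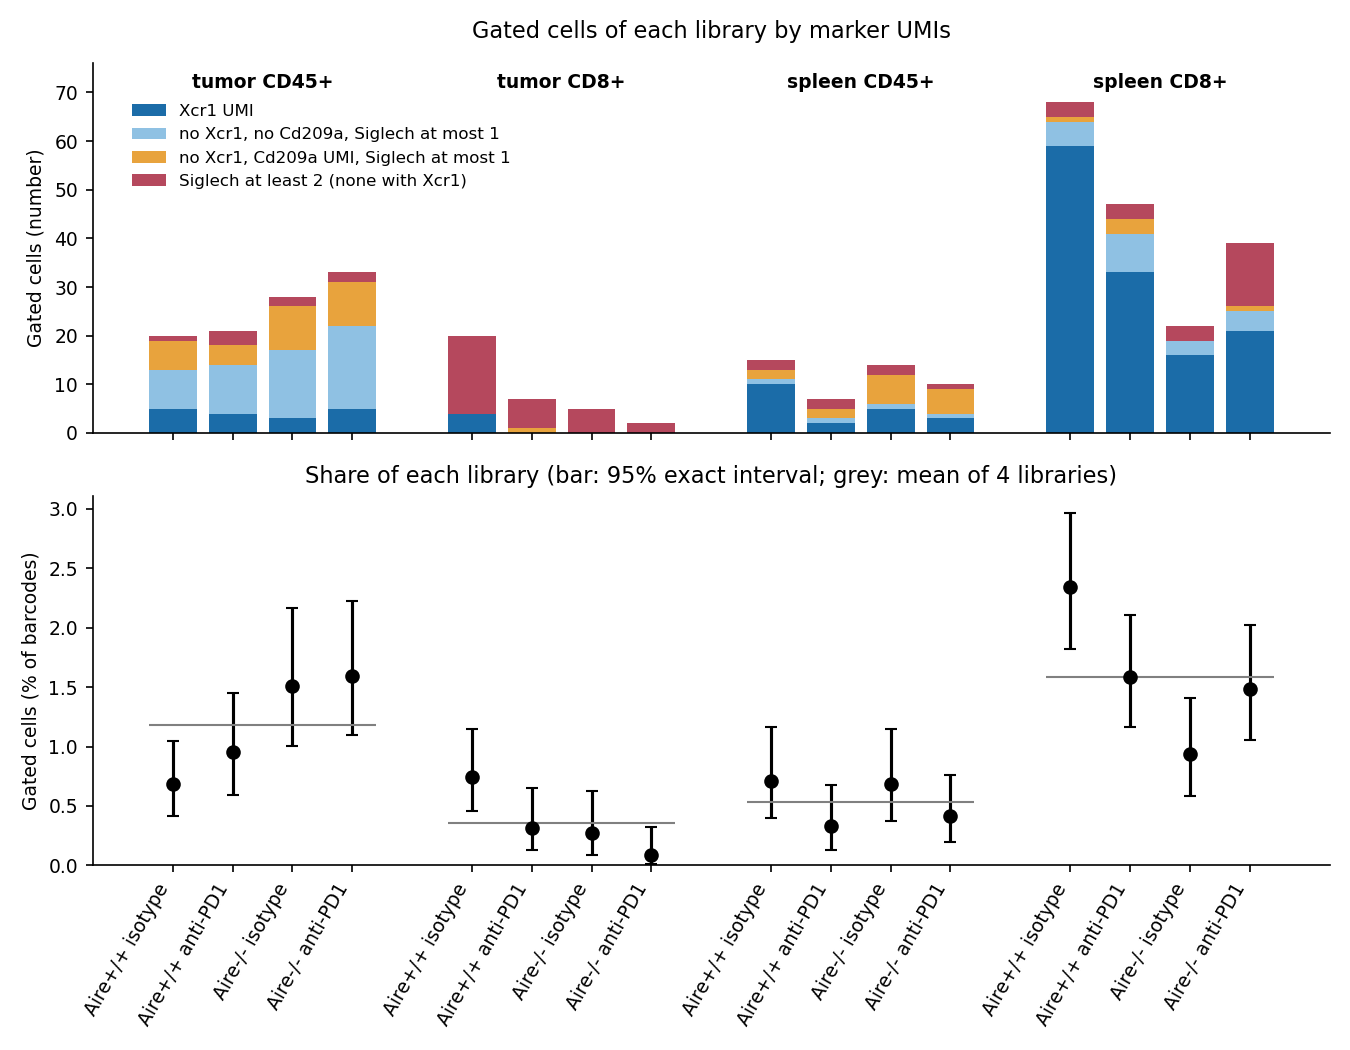
Gated cells in each of the 16 libraries: stacked bars give the number of cells by marker class, and points give the share of all barcodes (%) with its 95% exact interval and the mean of each 4 libraries in grey. The Siglech class made up 29 of the 34 gated cells of the tumor CD8+ libraries, and Xcr1 cells 129 of the 176 of the spleen CD8+ libraries.

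Levels of genes of the gate, which were left out of the tests, are described here beside those of Irf8, Wdfy4 and Aire, which are outside it. Xcr1 reached 157, 70.2, 30.6 and 34.9996 CPM in the tumor CD45+ libraries and 77.04, 0, 0 and 0 in the tumor CD8+ ones. Spleen values were 244, 52.4, 99.7 and 130.03 in the CD45+ sort and 354, 200.3, 291 and 189.5 in the CD8+ sort, so the spleen CD8+ library had the highest Xcr1 for each of the 4 groups of mice, and 3 tumor CD8+ libraries had 0. Clec9a ranged over 138 to 217 CPM in tumor CD45+, 95.7 to 194 in tumor CD8+, 224 to 460.1 in spleen CD45+ and 429 to 489 in spleen CD8+ libraries. Cst3, a cystatin abundant in dendritic cells, ranged over 12464 to 20106 CPM, 957 to 6847, 9050.1 to 15321 and 21605 to 26393 in the same order of groups. Irf8 was at 976 to 1446, 2360.3 to 3362, 770.2 to 2392 and 1468 to 2049.7 CPM, and Wdfy4 at 124 to 253, 0 to 203, 80.02 to 421 and 254 to 413. Irf8 was present in all 16 libraries, while Wdfy4 was at 0 in both Aire-/- libraries of the tumor CD8+ sort, which held 5 and 2 gated cells. Aire, the gene deleted in the Aire-/- mice, had 0 UMIs in the gated cells of each of the 16 libraries.

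Gated cells were a small part of every library. They made up 0.681%, 0.950%, 1.51% and 1.59% of barcodes in the tumor CD45+ libraries, with 95% exact Clopper-Pearson intervals of 0.417% to 1.05%, 0.589% to 1.45%, 1.003% to 2.17% and 1.10% to 2.23%. The shares were 0.744%, 0.315%, 0.269% and 0.0903% in the tumor CD8+ sort, 0.708%, 0.331%, 0.684% and 0.416% in the spleen CD45+ sort, and 2.34%, 1.58%, 0.934% and 1.48% in the spleen CD8+ sort. Each spleen CD8+ library had a higher share than the 4 spleen CD45+ libraries and the 4 tumor CD8+ libraries, while the CD45+ ranges of tumor and spleen overlapped. The mean was 1.59% ± 0.580 (SD, n = 4) in spleen CD8+ against 0.535% ± 0.190 (SD, n = 4) in spleen CD45+ libraries, a difference of 1.05 percentage points, higher in 4 of 4 groups of mice (two-sided exact permutation p = 0.0286, the smallest 70 splits allow; adjusted p = 0.0571 over 4 comparisons).

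In the CD8+ sort, the tumor mean of 0.355% ± 0.277 (SD, n = 4) was lower than that of spleen in 4 of 4 groups, with a difference of -1.23 percentage points (two-sided exact permutation p = 0.0286, adjusted p = 0.0571). In the CD45+ sort the tumor mean was 1.18% ± 0.438 (SD, n = 4), 0.647 points above spleen and higher in 3 of 4 groups (two-sided exact permutation p = 0.0857, adjusted p = 0.0857). Within tumor the difference of CD8+ minus CD45+ was -0.827 points, with the opposite order in 1 of 4 groups (two-sided exact permutation p = 0.0571, adjusted p = 0.0762). None of the 4 comparisons passed an adjusted p of 0.05. These permutations ignore that the libraries are paired by group of mice. With all 16 sign flips within the 4 groups, the smallest two-sided exact p possible is 0.125, and the adjusted p was 0.25 for each comparison. When cells with 2 or more Siglech UMIs were left out, a choice made after the data were seen, all 4 comparisons separated without overlap and had an adjusted p of 0.0286, with differences of 0.636 for tissue in CD45+, -1.33 for tissue in CD8+, 0.927 for sort in spleen and -1.04 for sort in tumor, and by sign flips within groups each had an exact p of 0.125. In the stricter set the tissue difference in the CD45+ sort was 0.162 points (two-sided exact permutation p = 0.4) and the other 3 comparisons had an adjusted p of 0.0381. Over the unpaired alternatives run, adjusted p ranged from 0.0286 to 0.657 for that difference, the highest after thinning to 3000 UMIs, and from 0.0286 to 0.2, 0.2 and 0.267 for tissue in CD8+, sort in spleen and sort in tumor.

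Gated cells of the tumor CD45+ libraries differed from those of spleen in many genes. Among the genes higher in tumor were members of the lists of interferon response, cytokines and chemokines, checkpoint ligands, immediate early genes and glycolysis. The count for each list is given below, and not every member passed. Several cDC1 genes, among them Cd8a, Cadm1 and Tlr11, were lower. The test used the 3 groups of mice with at least 10 gated cells on both sides, so Aire+/+ anti-PD1, with 7 cells in spleen, was left out and its values are only listed. Of 4344 genes tested by edgeR with the group of mice as block, 405 (9.32%) were higher in tumor and 151 (3.48%) lower at an adjusted p under 0.05, and DESeq2 called 302. The median log2 difference of all tested genes was -0.04. The count was 248 without Aire-/- isotype, 396 without Aire-/- anti-PD1 and 766 without Aire+/+ isotype. The gated cells of tumor and spleen were different mixtures of the marker classes above, and the part that the mixture plays in these counts was not tested.

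Interferon-response genes were the list with the most calls. Of the type I interferon list 27 of 34 tested genes were higher in tumor and 0 lower, beside 9.32% and 3.48% of all genes tested. The median log2 difference was 2.29 against -0.04 for all genes. The interferon-gamma list had 20 of 22 higher and 0 lower, with a median of 3.92 (3.87 with 1 gene placed at its bound). Ifitm1, an interferon-induced membrane protein, was at 2192, 1186, 4374 and 2699 CPM in tumor and 0, 0, 6.23 and 10.002 in spleen, a difference of 737-fold (95% counting interval 204 to 6091) in summed UMIs (adjusted p = 2.2e-08). Every tumor library was thus above every spleen library. Gbp2, a guanylate-binding protein induced by interferon-gamma, was at 68.01, 213, 349 and 569 CPM against 4.78, 0, 0 and 10.002, a ratio of 83.9-fold (95% counting interval 23.1 to 695) with an adjusted p of 6.97e-06. Isg15, a ubiquitin-like modifier, was at 722, 2315, 2310.2 and 1849 against 201, 0, 62.3 and 60.02 CPM (log2 difference 3.71 ± 0.49 (SE), adjusted p = 0.000123). Ranges did not overlap for either gene. Iigp1, an interferon-inducible GTPase, had 102, 32.7, 255 and 195 CPM in tumor and 4.78, 0, 0 and 0 in spleen, a ratio of 89.6-fold (95% counting interval 15.9 to 3551) with an adjusted p of 1.46e-05. Upp1, a uridine phosphorylase, was at 68.01, 23.4, 89.8 and 149 CPM in tumor and 0 in the 4 spleen libraries, at least 16.7-fold higher against a floor of 3 UMIs over the group (adjusted p = 0.000163).

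Chemokines that attract T cells through CXCR3 followed the same direction. Cxcl9 was at 264, 53.8, 478 and 1511 CPM in tumor and 105, 0, 37.4 and 40.01 in spleen (log2 difference 3.10 ± 0.48 (SE), adjusted p = 0.000469), and the lowest tumor value, in Aire+/+ anti-PD1, lay inside the spleen range. Cxcl11 had 105, 46.8, 327 and 284 CPM in tumor against 0 in each spleen library, at least 39.1-fold higher (adjusted p = 9.2e-06). Cxcl10 was at 657, 535, 1557 and 1337 CPM against 4.78, 0, 0 and 0, a ratio of 577-fold (95% counting interval 103 to 22811) with an adjusted p of 1.54e-07, but its level was not higher in gated cells than in the other barcodes of the same tumor libraries. The same held for 177 of the 371 higher genes with a mean of at least 50 CPM, the largest of which were Slfn1 (at least 38.04-fold higher), AA467197 (at least 43.3-fold) and Cxcl10, and for 36 of the 142 lower ones. RNA from other cells cannot be told apart from expression for such genes. The same holds where the margin was small: 22 of the 106 genes named by rule over all contrasts had less than 2 times the level of other barcodes. In tumor here these were Il1b (3789.6 CPM in gated cells of the tested libraries against 3476), Upp1 (107 against 103), Fosb, Rasgef1b, Nr4a2 and Nr4a3. For genes reported outside the rule, among them Gbp2, Isg15, Cd274, Cd86, Fos and Slc2a1, no margin is given in this contrast. In the anti-PD1 tumor CD45+ libraries Gbp2 was at 412 CPM in gated cells against 399.8 in other barcodes. Among the inflammatory cytokines, Il1b was at 3073, 2455, 3776 and 4307 CPM in tumor and 71.8, 0, 12.5 and 80.02 in spleen (log2 difference 6.12 ± 0.39 (SE), adjusted p = 2.43e-07), with every tumor library above every spleen library. Its decoy receptor gene Il1r2, also a marker on the cDC2 list, was at 327, 479, 537 and 571 against 9.57, 0, 0 and 0 CPM, a ratio of 116-fold (95% counting interval 31.9 to 958) with an adjusted p of 1.65e-06. Of the cytokine and chemokine list 7 of 12 tested genes were higher and 0 lower (median 3.30), the others being Ccl2, Ccl3, Ccl4 and Cxcl16. Of all genes tested, 9.32% were higher. Ccl5, a chemokine that attracts T cells, was at 136, 213, 67.3 and 82.9 against 9.57, 0, 0 and 120.03 CPM and did not pass (log2 difference 1.64 ± 0.68 (SE), adjusted p = 0.141). The cytokine gene Il12b had UMIs in the gated cells of a single library, spleen CD8+ Aire+/+ isotype (21.0 CPM).

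Several ligands of inhibitory and costimulatory receptors were also higher. Cd274, which encodes PD-L1, was at 107, 129, 153 and 278 CPM in tumor and 4.78, 13.1, 12.5 and 10.002 in spleen (log2 difference 4.17 ± 0.46 (SE), adjusted p = 1.92e-05), and the lowest tumor library was above the highest spleen library. Cd86, a CD28 ligand, was at 188, 199, 298 and 306 against 76.6, 39.3, 68.5 and 40.01 CPM (log2 difference 1.99 ± 0.33 (SE), adjusted p = 0.000707), again without overlap. Timd4, a receptor for phosphatidylserine on dying cells, was at 131, 18.7, 151 and 243 CPM and had 0 UMIs in the spleen libraries, at least 28.3-fold higher (adjusted p = 1.83e-05). Of the costimulatory and checkpoint list 7 of 11 tested genes were higher and 0 lower (median 1.99), and of the maturation list 6 of 16 were higher and 0 lower (median 0.71), namely Basp1, Cd83, Cd40, Cd86, Traf1 and Marcksl1. Tap1 and Tapbp were the 2 of 23 tested MHC class I genes that were higher, and H2-DMb2 and Ctss the 2 of 12 for MHC class II, beside 9.32% of all genes tested, with a median of 0.16 for each list and 0 genes lower.

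Promoters of the interferon genes were searched for the letters of the interferon-stimulated response element, GAAA, any pair of bases and GAAA again, on both strands. Of the 47 interferon-list genes called higher in tumor, 37 had a promoter of 300 bases in RefSeq GRCm38.p6, and 20 of these genes had at least 1 match. Counted by promoter it was 20 of 44 (45.5%), against 1131 of all 32851 promoters (3.44%). This is a description of sequence and was not tested. The promoters of Cxcl10 (chromosome 5, 92348840 to 92349139, minus strand), Gbp2 (chromosome 3, 142620413 to 142620712, plus strand) and Isg15 (chromosome 4, 156200769 to 156201068, minus strand) are shown as examples with a match. Cxcl9, Cd274 and Upp1, also described here, have promoters in the same set and 0 matches. Each is written along the strand of its gene and capitals mark the matches, of which Isg15 has 3 that overlap.
Cxcl10: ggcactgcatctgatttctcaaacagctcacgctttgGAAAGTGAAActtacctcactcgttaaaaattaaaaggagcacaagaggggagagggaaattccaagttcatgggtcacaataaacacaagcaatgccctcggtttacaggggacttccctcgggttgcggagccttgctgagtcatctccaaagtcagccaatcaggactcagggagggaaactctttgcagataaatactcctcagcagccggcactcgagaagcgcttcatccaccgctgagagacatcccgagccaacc
Gbp2: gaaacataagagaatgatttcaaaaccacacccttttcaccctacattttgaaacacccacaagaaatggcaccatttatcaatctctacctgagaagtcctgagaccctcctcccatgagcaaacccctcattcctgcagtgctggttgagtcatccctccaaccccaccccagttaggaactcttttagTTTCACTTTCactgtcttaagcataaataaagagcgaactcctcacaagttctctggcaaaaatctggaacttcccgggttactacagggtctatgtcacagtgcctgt
Isg15: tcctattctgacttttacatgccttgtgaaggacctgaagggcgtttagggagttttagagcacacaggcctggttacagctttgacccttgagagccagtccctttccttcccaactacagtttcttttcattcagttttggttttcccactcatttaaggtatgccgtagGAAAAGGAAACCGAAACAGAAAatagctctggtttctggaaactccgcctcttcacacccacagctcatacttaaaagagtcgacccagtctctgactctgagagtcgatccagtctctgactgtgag

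Several immediate early genes, which dissociation of tissue can induce, were higher in tumor. Of the joint list of immediate early and heat shock genes 13 of 23 tested genes were higher and 0 lower (median 1.56). Of all genes tested, 9.32% were higher. Fos was at 2791, 3433, 2276 and 2330.2 CPM in tumor and 368, 354, 87.2 and 160.04 in spleen (log2 difference 3.72 ± 0.32 (SE), adjusted p = 3.72e-06), with no overlap. The nuclear receptor gene Nr4a3 was at 36.6, 74.8, 34.7 and 162 CPM against 0 in the spleen libraries, at least 13.2-fold higher (adjusted p = 0.000692). Fosb, an AP-1 subunit, had 207, 227, 161 and 332 CPM in tumor and 4.78, 39.3, 0 and 0 in spleen, a ratio of 112-fold (95% counting interval 19.99 to 4442). Nr4a2 and Rasgef1b, the latter a Ras exchange factor, had ratios of 113-fold (95% counting interval 20.2 to 4481) and 98.5-fold (95% counting interval 17.5 to 3904), each with 1 UMI in spleen. Adjusted p for these 3 genes was 6.28e-06, 7.13e-06 and 6.97e-06. Genes of glycolysis and hypoxia were higher in 14 of 20 cases and lower in 0 (median 1.28). Among them the glucose transporter gene Slc2a1 was at 88.9, 84.2, 122 and 160.3 against 14.4, 0, 18.7 and 10.002 CPM (log2 difference 2.95 ± 0.44 (SE), adjusted p = 0.000321), without overlap. Plet1, a surface protein of intestinal dendritic cells, was at 345, 133, 196 and 82.9 CPM in tumor and 0 in spleen, at least 30.2-fold higher (adjusted p = 9.71e-06).

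Of 22 tested cDC1 markers outside the gate, 8 were lower in the gated cells of tumor (Cd8a, Cd36, Tlr12, Tlr11, Cadm1, Ppt1, Snx22 and Flt3), Ifi205 was higher and 13 did not pass, with a median of -0.62. Of all genes tested, 3.48% were lower and 9.32% higher. Cd8a was at 0, 18.7, 24.5 and 0 CPM in tumor CD45+ and 187, 26.2, 224 and 430.1 in spleen CD45+ libraries (log2 difference -5.05 ± 0.64 (SE), adjusted p = 8.14e-05), and each spleen library was above each tumor library. Among cells with at most 1 Siglech UMI, 1 of 94 in tumor CD45+ and 18 of 39 in spleen CD45+ had a Cd8a UMI, and 140 of 154 in spleen CD8+. In the 292 such cells there were 41.3 Cd8a UMIs for each Cd8b1 UMI, against 0.547 in T cells with either gene and 1.17 in the Siglech class. Cadm1, an adhesion molecule of cDC1, was at 7.85, 21.05, 14.3 and 9.21 against 66.99, 0, 56.1 and 90.02 CPM (log2 difference -2.68 ± 0.52 (SE), adjusted p = 0.00274), with the spleen Aire+/+ anti-PD1 library at 0 and the other 3 spleen libraries above those of tumor. Tlr11, a receptor for profilin, was at 15.7, 14.03, 8.16 and 7.37 against 158, 52.4, 43.6 and 80.02 CPM (log2 difference -3.06 ± 0.46 (SE), adjusted p = 0.000333), each spleen library above each tumor library. The apolipoprotein gene Apol7c had 0 UMIs in tumor and 148, 0, 187 and 720.2 CPM in spleen, at least 134-fold lower (adjusted p = 7.11e-07), and Gm8221, an Apol7c-like sequence, was at least 112-fold lower (adjusted p = 1.47e-06). In these 2 genes the spleen Aire+/+ anti-PD1 library also had 0. Itgae, which encodes CD103, was at 157, 112, 30.6 and 82.9 against 43.1, 0, 18.7 and 90.02 CPM and did not pass (log2 difference 0.93 ± 0.44 (SE), adjusted p = 0.204). In the stricter set the difference was 1.21 (adjusted p = 0.136) in the CD45+ sort and 0.88 (adjusted p = 0.028) with both sorts summed. Within the Xcr1 class, without a test, Itgae was at 298 CPM in tumor CD45+ against 81.1 in spleen CD45+ libraries (82.4% against 35% of cells), Cd8a at 0 against 386 and Cadm1 at 35.2 against 116 CPM. The values of Irf8 were -0.23 (adjusted p = 0.619) and of Batf3 -0.91 (adjusted p = 0.0543).

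Other named genes that were lower in tumor had low counts. F630028O10Rik, a myeloid long RNA, was at 0, 9.35, 2.04 and 0 CPM in tumor and 134, 13.1, 125 and 320.1 in spleen, with 1 UMI in the tested tumor libraries, lower by a ratio of 241-fold (95% counting interval 42.1 to 9643) with an adjusted p of 2.54e-06. Treml4, a receptor for dead cells, was at 0, 7.01, 6.12 and 0 against 43.1, 0, 56.1 and 80.02 CPM, lower by a ratio of 26.1-fold (95% counting interval 8.01 to 135) with an adjusted p of 0.00234. In both genes the spleen Aire+/+ anti-PD1 library was the lowest of spleen and the other 3 were above tumor. Abcg3, a transporter gene, the scavenger receptor gene Cd36, Hpgd, which degrades prostaglandins, the sulfotransferase gene Hs3st1, 1600010M07Rik and the channel gene Calhm2 had log2 differences of -4.12, -3.97, -3.89, -3.58, -3.55 and -3.16. Hpgd was at 20.9, 0, 2.04 and 5.53 CPM in tumor and 9.57, 13.1, 280 and 190 in spleen. In Aire+/+ isotype it was thus higher in tumor, and its lower fitted value came from the Aire-/- groups. Calhm2 had 1.31 times the level of other barcodes. Cd81, Cd1d1 and Il16 were the largest among the lower genes that were not higher in gated cells than in other barcodes. Of the 24 genes named by rule in this contrast, 20 were tested and called under every alternative run. Nr4a3 and 1600010M07Rik were called under each alternative in which they were tested, and Hpgd and Hs3st1 were not. Receptor genes went both ways (4 higher, among them Il1r2, Ccr1 and Csf2rb, and 5 lower, Cx3cr1, Cxcr3, Ifngr1, Ccr2 and Flt3, of 21; median 0.21). So did pattern recognition genes (5 higher, Clec4n, Cd14, Axl, Clec7a and Myd88, and 4 lower, Cd36, Tlr12, Tlr11 and Clec12a, of 18; median -0.03). Lysosome and lipid genes had 4 higher (Spp1, Lamp2, Ctss and Ctsc) and 1 lower (Lipa) of 18, with a median of 0.34. Beside these lists, 9.32% of all genes tested were higher and 3.48% lower. Of 15 tested cell cycle genes 0 were called by edgeR and 0 by DESeq2, and 2 had an unadjusted p under 0.05 in edgeR (median -0.21).

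Markers of other cells were measured in the same sums of gated cells. Of all genes tested in this contrast, 9.32% were higher in tumor and 3.48% lower. The summed level of the 10 pDC markers was 1299.9, 1924, 1725 and 1888 CPM in tumor CD45+ and 1636, 5186, 2748 and 2321 in spleen CD45+ libraries, and 5 of the 10 (Spib, Ly6d, Cox6a2, Runx2 and Siglech) were lower in tumor (median -1.05), with Bst2 the most abundant. The 14 detected cDC2 markers of 15, with Clec4a4 at 0 in all 16 libraries, summed to 2425, 2715, 4139 and 2885 CPM in tumor CD45+ and 545, 2659, 2443 and 3161 in spleen CD45+, and 4 of 11 tested (Il1r2, Ms4a4c, Klf4 and S100a4) were higher in tumor and 0 lower (median 0.42). Monocyte markers summed to 2035, 4073, 4043 and 3347 against 1669.8, 3445, 3826 and 4101 CPM with Plac8 the most abundant, and 1 of 4 tested, Ccr2, was lower. Macrophage markers outside the gate summed to 523, 1375, 1027 and 879 against 206, 642, 698 and 750.2 CPM, and 2 of 5 tested, among them Fcgr1, were higher. NK cell markers summed to 345, 248, 382 and 1919 against 110.05, 78.6, 112 and 70.02 CPM, and the 1 tested, Klrk1, was higher. T cell markers summed to 63.1 to 111 against 30.01 to 131 CPM and the 1 tested gene was not called. B cell markers reached 4.08 to 14.03 against 20.005 to 65.5 CPM, neutrophil markers 0 to 2.04 against 0, erythroid markers 0 against 0 to 14.4, and tumor or stroma markers 0 to 16.4 against 0 to 10.002 with Dcn, Krt19 and Krt8 at 0. No gene of these last 4 lists was abundant enough to be tested. Whether such cells or their RNA account for any of the differences was not tested.

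The contrast was repeated in the stricter set of 198 cells, chosen after the data had been seen. In the CD45+ sort, with a minimum of 5 cells in place of 10, 225 of 2989 tested genes (7.53%) were higher in tumor and 84 (2.81%) lower, and of the 556 genes called above 430 were tested, 430 had the same direction and 279 were called. With both sorts of a tissue summed, the stricter set gave 623 higher (14.2%) and 428 lower (9.72%) of 4402. Of the 556 genes, 496 were tested there, 490 had the same direction and 441 were called. These sums mix the sorts in different proportions in the 2 tissues.

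**Figure D2:**
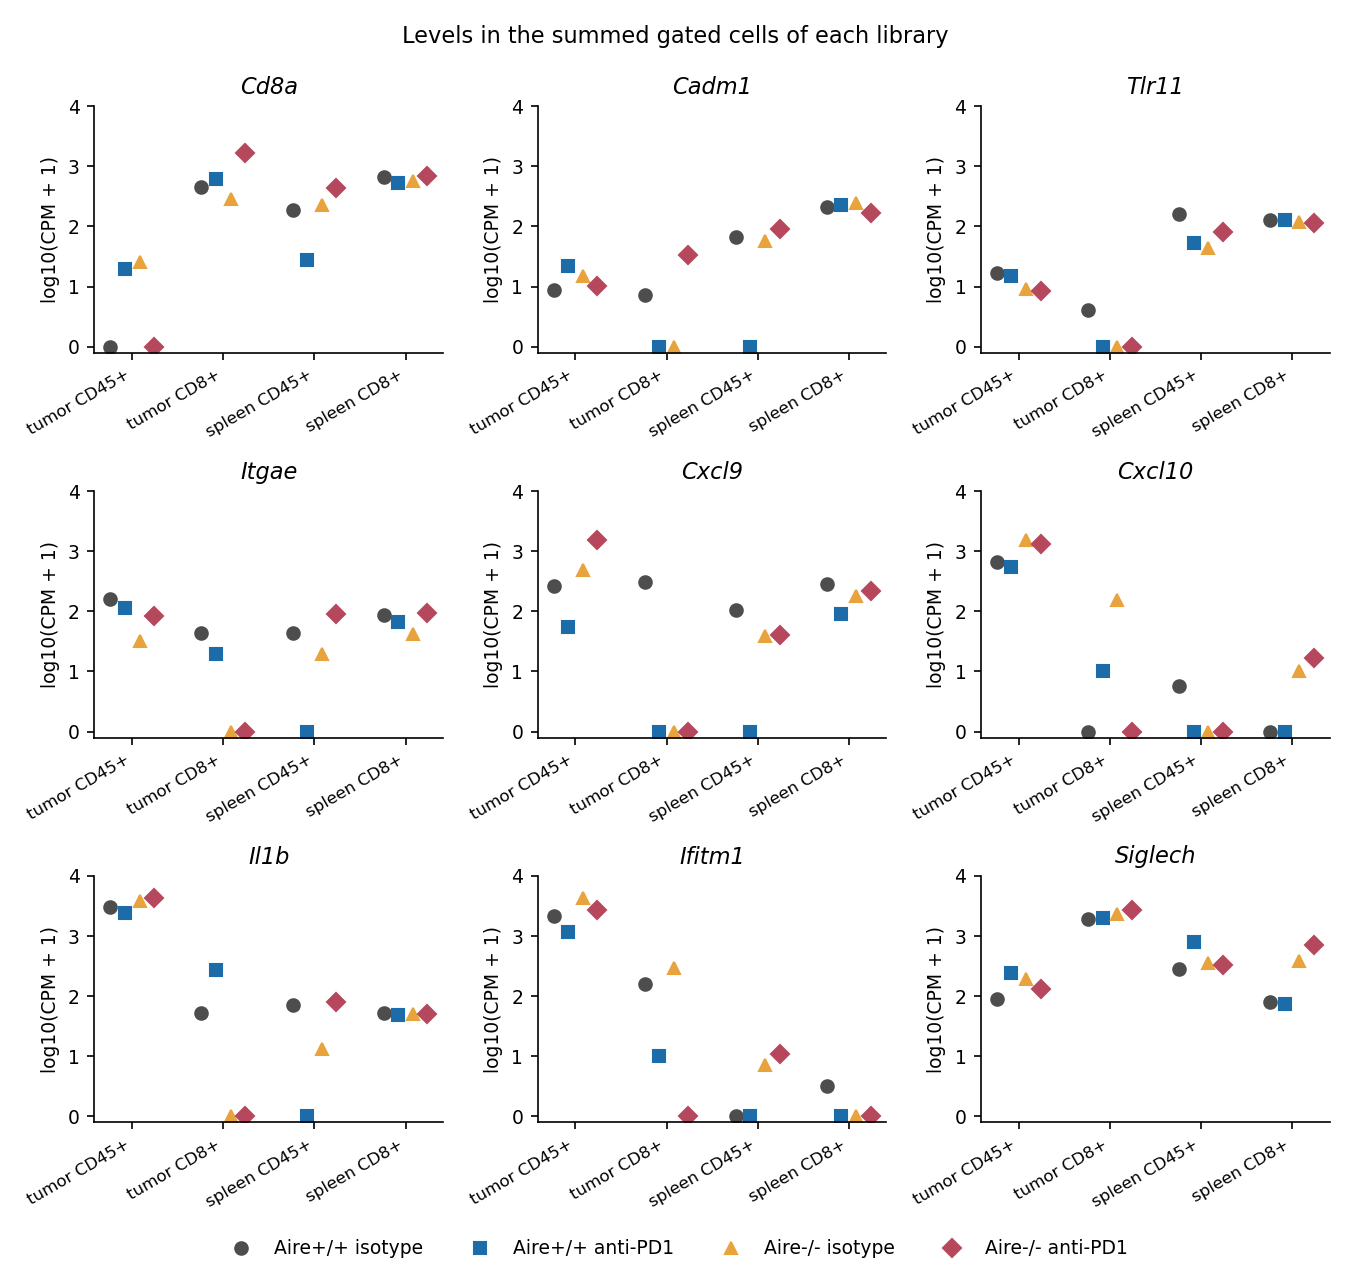
Levels of 9 genes in the gated cells of each of the 16 libraries, as log10(CPM + 1), with symbols for the group of mice and 1 panel per gene. Ifitm1 was at 1186 to 4374 CPM in the tumor CD45+ libraries and at 0 to 10.0 in the spleen CD45+ libraries, while Cd8a was at 0 to 24.5 and 26.2 to 430.1.

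**Figure D3:**
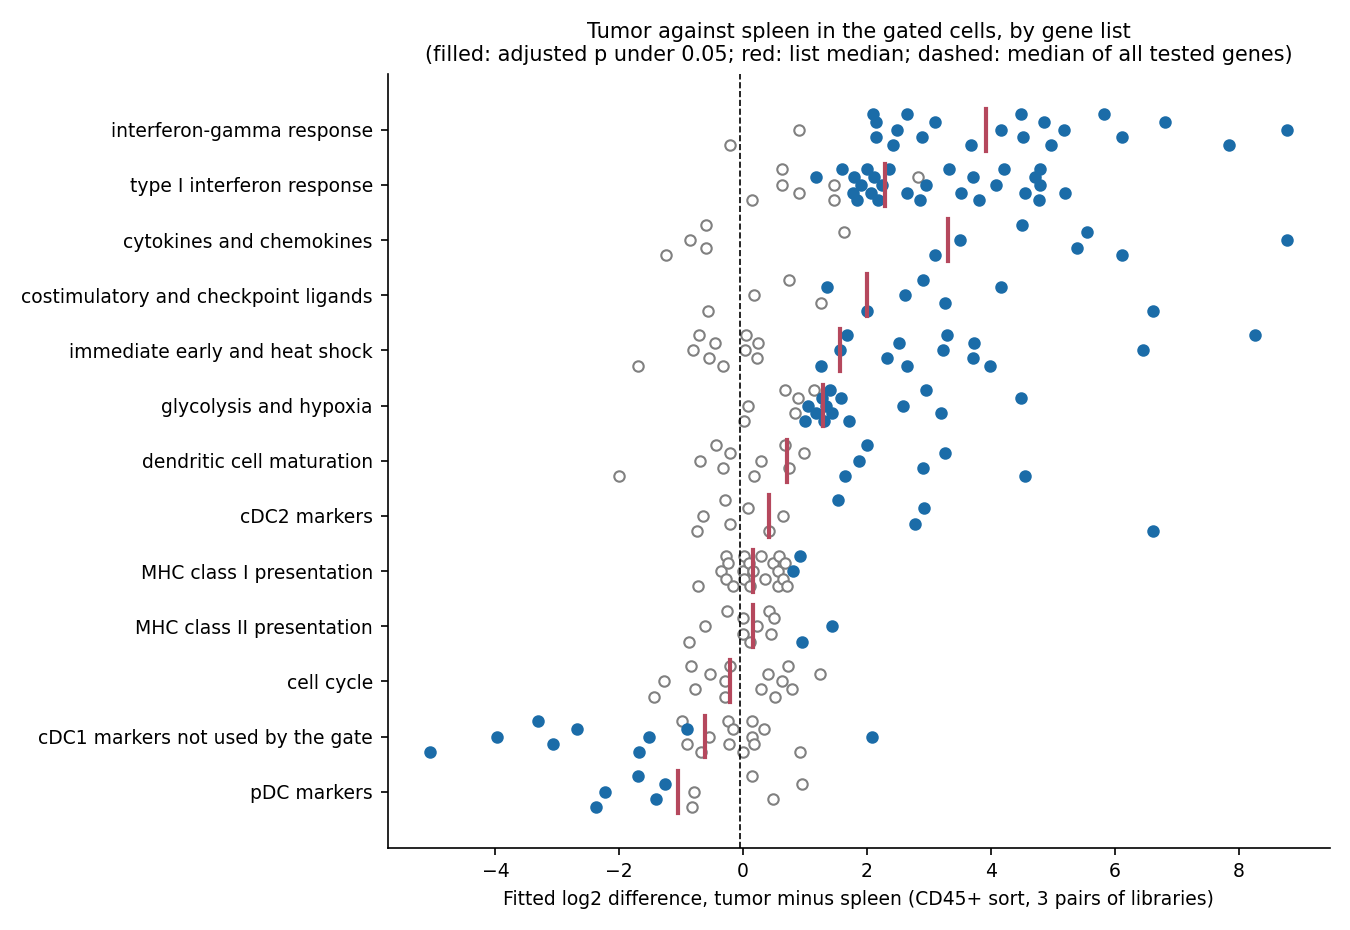
Fitted log2 differences (tumor minus spleen, gated cells of the CD45+ sort, 3 groups of mice) for the tested genes of 13 lists; filled points had an adjusted p under 0.05, red lines give list medians and the dashed line the median of all tested genes, -0.04. The medians were 3.92 for the interferon-gamma and 2.29 for the type I interferon list, against -0.21 for cell cycle.

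Gated cells of the CD8+ and the CD45+ sort were compared within spleen. Sums of markers were not tested. The summed level of cDC1 markers outside the gate, without Cd8a, was 10015, 8215, 9494 and 7361 CPM in the CD8+ and 9689, 5527, 5172 and 4401 in the CD45+ libraries, higher in the CD8+ library of each group of mice but with overlap through the Aire+/+ isotype CD45+ library. The cDC2 markers summed to 177, 581, 349.9 and 784 against 545, 2659, 2443 and 3161 CPM, higher in the CD45+ library of each group of mice. In the test of 3 groups of mice, 13 of 3261 genes (0.399%) were higher in the CD8+ sort and 50 (1.53%) lower, and DESeq2 called 16. The balance was 2 higher and 9 lower without Aire-/- isotype, 6 and 51 without Aire+/+ isotype, 53 and 52 without Aire-/- anti-PD1, 44 and 86 with a minimum of 5 cells and 74 and 112 with that minimum and Siglech at most 1. The count was 0 by edgeR with a cap on UMIs per cell (207 at an unadjusted p under 0.05). Of the 24 genes named here, 0 were called under every alternative. The median log2 difference of all tested genes was -0.02, and -0.11 when scaled to library totals.

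Cadm1 was at 213, 229, 241 and 164 CPM in the CD8+ sort and 66.99, 0, 56.1 and 90.02 in the CD45+ sort of spleen (log2 difference 1.68 ± 0.31 (SE), adjusted p = 0.0124), with every CD8+ library above every CD45+ library. Cxcl9 was at 281, 87.9, 182 and 221 against 105, 0, 37.4 and 40.01 CPM (log2 difference 1.97 ± 0.30 (SE), adjusted p = 0.00329), higher in 4 of 4 groups of mice, though the Aire+/+ anti-PD1 CD8+ library lay inside the CD45+ range. Apol7c was at 604, 454, 723 and 979 against 148, 0, 187 and 720.2 CPM (a ratio of 2.53-fold (95% counting interval 2.11 to 3.05) in summed UMIs, adjusted p = 0.0236), and here the Aire-/- anti-PD1 CD45+ library lay inside the range of the CD8+ sort. The protease inhibitor genes Serpinb6b and Serpinb9, the protease gene Adam8, the dead-cell receptor gene Treml4, the nuclease gene Dnase1l3 and the survival genes Bcl2a1b, Bcl2a1a and Bcl2a1d had log2 differences of 2.28, 2.10, 1.88, 1.61, 1.49, 1.43, 1.42 and 1.29. The remaining higher gene named by the rule, Cd8a, belongs to the sort and is not counted as a finding. Without Cd8a, 21 cDC1 markers outside the gate were tested, all with a positive fitted difference, and Cadm1 was the 1 called. The sign did not hold in every group of mice. In Aire-/- isotype and Aire-/- anti-PD1, Batf3 was at 159 and 114 CPM in the CD8+ sort against 206 and 120 in the CD45+ sort.

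Several receptor genes and markers of other myeloid cells were lower in the CD8+ sort. Ccl9, a chemokine, was at 0, 327, 193 and 300.1 CPM in the CD45+ sort and 0, 6.13, 0 and 0 in the CD8+ sort, at least 65.4-fold lower over the 3 groups tested (adjusted p = 0.000333). Cd209a was at 110.05, 759.6, 804 and 1440.4 against 16.6, 123, 27.3 and 236 CPM (log2 difference -3.13 ± 0.34 (SE), adjusted p = 0.000301), and both anti-PD1 CD8+ libraries lay within the CD45+ range. The receptor genes Sirpb1a, Clec4a3, Sirpb1b, Fcgr3, Clec4a1, Clec4b1 and Ltb4r1 were at least 35.4-, 40.7-, 34.3-, 30.01-, 28.9-, 26.8- and 23.6-fold lower, with 0 UMIs in the tested CD8+ libraries. Their UMIs in the CD45+ sort came mostly from the Aire-/- libraries: Sirpb1a was at 9.57, 0, 56.1 and 220.1 and Clec4a3 at 14.4, 13.1, 118 and 160.04 CPM, and Sirpb1b, Clec4b1 and Ltb4r1 were at 0 in Aire+/+ isotype. None of these 7 genes was abundant enough to be tested with an Aire-/- pair left out. Clec4a3, Fcgr3 and Clec4a1 had 1.31, 1.38 and 1.37 times the level of other barcodes. LOC100038947 and Gm9733 were at least 31.1- and 30.01-fold lower, and had 1.42 and 1.12 times the level of other barcodes. Clec7a, the receptor for beta-glucan, and Hpgd had log2 differences of -4.65 and -4.40. Lyz1, Ms4a4c and S100a10 were the largest of 9 lower genes that were not higher in gated cells than in other barcodes. Of 9 tested cDC2 markers 4 (Csf1r, Cd209a, Ms4a4c and S100a4) were lower and 0 higher (median -2.81), and Lyz2 and Ccr2 were lower among 4 monocyte markers. Summed monocyte markers were at 1337, 1496, 1482 and 2477 CPM in the CD8+ and 1669.8, 3445, 3826 and 4101 in the CD45+ libraries. Whether the share of cDC2-like cells among the gated cells gives these differences was not tested. In the stricter set, with a minimum of 5 cells in place of 10, 31 genes were called, and of the 63 genes above 43 were tested there, 43 had the same direction and 27 were called.

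Tumor CD8+ libraries could not be fitted against either spleen CD8+ or tumor CD45+ libraries, since only the Aire+/+ isotype pair had 10 gated cells on both sides. They had the highest levels of pDC genes. Siglech was at 1914, 1994, 2331 and 2743 CPM in tumor CD8+, 88.9, 243, 189.8 and 131 in tumor CD45+, 79.6, 73.6, 386 and 722 in spleen CD8+ and 278, 786, 361 and 330.1 in spleen CD45+ libraries. The lowest tumor CD8+ library was above the other 12. All 10 pDC markers were detected in this group, with Klk1 the most abundant, and they summed to 14601, 15148, 19284 and 25389 CPM. T cell markers summed to 549, 480.02, 746 and 2105 CPM in the tumor CD8+ libraries, Cd8b1 being the most abundant. Cst3 was lower there than in any of the other 12 libraries, and Naaa was at 505, 102, 0 and 0 CPM, against 1104, 826, 954 and 519 in spleen CD8+. These levels were not tested.

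In tumor, gated cells of Aire-/- mice had higher levels of several interferon-gamma response genes than those of Aire+/+ mice. The contrast is 2 against 2 libraries of the CD45+ sort with treatment as covariate, which leaves 1 residual degree of freedom, so the spread between libraries is pooled over genes here and in the next 3 contrasts of 4 libraries. Of 4908 genes tested, 43 (0.876%) were called by edgeR, 34 higher in Aire-/- and 9 lower, while DESeq2 called 0 (56 at an unadjusted p under 0.05). The count was 82, 193, 17 and 0 when the 4 libraries were left out in turn (263 at an unadjusted p under 0.05 in the last, without Aire-/- anti-PD1). It was also 0 by edgeR without the treatment covariate (323 unadjusted), with Siglech at most 1 (241) and after thinning (64), and 31 (24 higher and 7 lower of 2811) in the stricter set. Each of the named genes below lost its call under at least 1 alternative.

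Cxcl9 was at 264, 53.8, 478 and 1511 CPM, so both Aire-/- libraries were above both Aire+/+ libraries (log2 difference 2.65 ± 0.42 (SE), adjusted p = 8.93e-05). Iigp1 was at 102, 32.7, 255 and 195 CPM (log2 difference 1.88 ± 0.33 (SE), adjusted p = 0.000326) and Cxcl11 at 105, 46.8, 327 and 284 CPM (log2 difference 2.10 ± 0.31 (SE), adjusted p = 3.31e-05), again without overlap. Of the interferon-gamma list 8 of 22 tested genes were higher and 0 lower (median 1.09, against -0.01 for all genes), and of the type I list 3 of 35 (median 0.61). Gm4951, an interferon-inducible GTPase gene, the transcription factor gene Batf2, Ass1 of arginine synthesis, the calponin gene Cnn3, Timd4, Oasl1, Klk1, Fam110a and Cd209a had log2 differences of 2.47, 2.19, 1.66, 1.66, 1.62, 1.60, 1.59, 1.56 and 1.54. Rrad, Rpph1, Hist1h2bc and Zfp36l1 were lower in Aire-/-, with log2 differences of -2.37, -2.11, -1.65 and -1.02. Iigp1, Oasl1, Hist1h2bc and Zfp36l1 had 1.95, 1.19, 1.51 and 1.11 times the level of other barcodes. BC002163, Pdcd1lg2 and Hk3 led 14 higher genes, and Fabp5, Slamf9 and Ddit4 were the 3 lower genes, that were not higher in gated cells than in other barcodes. The study lists BC002163 as higher in Aire-/- also in a cluster of activated CD8 T cells and in NK cells of tumors given anti-PD1. Single markers on the cDC2, pDC and monocyte lists, Cd209a, Klk1 and Lyz2, were called higher, with summed levels as given above for the tumor CD45+ libraries. The NK cell markers were at 1919 CPM in Aire-/- anti-PD1, the library without which 0 genes were called, against 248 to 382 in the other 3. Whether the number of such cells differs with genotype was not tested.

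Treatment was compared in the same 4 tumor CD45+ libraries with genotype as covariate. Of 4908 genes 24 (0.489%) were called, 18 higher with anti-PD1 and 6 lower, and DESeq2 called 3. The count was 42, 44, 113 and 2 with the 4 libraries left out in turn, the lowest without Aire-/- anti-PD1. Gbp2, at 412 CPM in the gated cells with anti-PD1 against 399.8 in other barcodes, was at 68.01, 213, 349 and 569 CPM, higher with anti-PD1 in both genotypes although the Aire-/- isotype library was above the Aire+/+ anti-PD1 library (log2 difference 1.15 ± 0.28 (SE), adjusted p = 0.0309). Nr4a3 was at 36.6, 74.8, 34.7 and 162 CPM (log2 difference 1.75 ± 0.39 (SE), adjusted p = 0.0112), both anti-PD1 libraries above both isotype libraries. Ly6d, a pDC marker, and Pltp, a phospholipid transfer protein, had log2 differences of 1.44 and 1.40, and with Siglech at most 1 that of Pltp was -0.49 and 2 genes were called, against 22 (17 higher and 5 lower of 2811) in the stricter set. Lower with anti-PD1 were Stmn1, which binds tubulin, the histone gene H2afx, the transcription factor gene Hhex and Plet1, with log2 differences of -3.15, -2.24, -1.52 and -1.25. Stmn1 was at 71.1 CPM in the gated cells with isotype against 66.9 in other barcodes. Of 14 tested cell cycle genes 3, Top2a, Stmn1 and H2afx, were lower and 0 higher (median -0.66 against 0.02 for all genes). Cxcl2, Id3 and Thbs1 led 13 higher genes that were not higher in gated cells than in other barcodes. On the marker lists, 2 of 5 tested macrophage genes, among them Apoe, Thbs1 of 6 monocyte genes and Ly6d of 9 pDC genes were higher, and whether such cells or their RNA are more frequent was not tested.

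In spleen the genotypes were compared in the CD8+ sort, the one with more gated cells. Every pDC marker on the list was higher in the gated cells of Aire-/- mice: 10 of 10 were called, with a median log2 difference of 2.12 against 0.00 for all genes. Their summed level was 692, 715, 2418 and 4611 CPM, so both Aire-/- libraries were above both Aire+/+ libraries, with Bst2 the most abundant. In the spleen CD45+ libraries of the same mice, which were not tested for genotype, it was 1636, 5186, 2748 and 2321 CPM, the highest in an Aire+/+ library. Cells with at least 2 Siglech UMIs numbered 3, 3, 3 and 13, of 68, 47, 22 and 39 gated cells. Of 4646 genes 97 (2.09%) were called, 88 higher and 9 lower, and DESeq2 called 12. The count was 63, 75, 130 and 16 with the libraries left out in turn, the lowest without Aire-/- anti-PD1, 12 when cells with 2 or more Siglech UMIs were left out and 18 in the stricter set. It was 0 by edgeR with at least 2 UMIs of Xcr1 and Clec9a (195 at an unadjusted p under 0.05). Siglech itself was at 79.6, 73.6, 386 and 722 CPM (log2 difference 2.75 ± 0.21 (SE), adjusted p = 8.28e-30), and Cox6a2, a respiratory chain subunit on the pDC list, at 28.8, 2.04, 409 and 459.6 CPM (log2 difference 4.57 ± 0.27 (SE), adjusted p = 7.32e-45). In both genes the Aire-/- libraries were the higher 2. In the spleen CD45+ libraries Siglech was at 278, 786, 361 and 330.1 and Cox6a2 at 119.6, 118, 181 and 480.1 CPM, so the order held there for Cox6a2 and not for Siglech. The p-values of Siglech and Cox6a2 rest on 1 residual degree of freedom, with the spread pooled over genes. They do not measure spread between mice, and the Aire+/+ libraries alone had Cox6a2 at 28.8 and 2.04 CPM. What the mixture of cells contributes to the 97 genes was not tested.

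Other genes named in that contrast included Hs3st1, ENSMUSG00000105547, Smim5, the protease gene Ctsl, the adaptor gene Blnk, the ion pump subunit gene Atp1b1, the lectin gene Clec10a, the inhibitory receptor gene Lair1, Pltp and Klk1, with log2 differences of 4.32, 3.35, 3.26, 3.20, 3.16, 3.03, 2.97, 2.90, 2.67 and 2.58. Lower in Aire-/- were Mt1, S100a4, Rnaset2b, Gp2, Ms4a6c, Anxa1 and Sh3bgrl3 (-2.19, -1.92, -1.62, -1.21, -1.12, -0.95 and -0.66). S100a4 and Rnaset2b had 1.59 and 1.10 times the level of other barcodes. The study lists Rnaset2b as lower in Aire-/- also in activated CD8 T cells and NK cells of tumors given anti-PD1. Capg, Hvcn1 and Ifi47 among the higher genes and Acp5 among the lower ones were not higher in gated cells than in other barcodes. Of 5 tested cDC2 markers Clec10a and Cd7 were higher and S100a4 lower. Interferon-gamma genes had 3 of 7 higher (Ifi47, Socs1 and Irf1; median 0.89). Whether this genotype difference differs between tumor and spleen was not tested.

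Treatment was compared in spleen in the same 4 CD8+ libraries. Of 4646 genes 36 (0.775%) were called, 32 higher and 4 lower, and DESeq2 called 1. The count was 0, 118, 49 and 38 with the libraries left out in turn (153 at an unadjusted p under 0.05 in the first, without Aire+/+ isotype). It was 0 by edgeR without the genotype covariate (175 unadjusted), with at least 2 UMIs of Xcr1 and Clec9a (148) and after thinning (70). Cd209a was at 16.6, 123, 27.3 and 236 CPM, higher with anti-PD1 in both genotypes (log2 difference 2.97 ± 0.32 (SE), adjusted p = 3.99e-15), and Cd209d, a related lectin gene, at 23.2, 125, 0 and 286 CPM (log2 difference 3.21 ± 0.32 (SE), adjusted p = 1.7e-17). For both genes the 2 anti-PD1 libraries were above the 2 isotype libraries. Their p-values also rest on 1 residual degree of freedom and do not measure spread between mice. In the spleen CD45+ libraries of the same mice, which were not tested for treatment, Cd209a was at 110.05, 759.6, 804 and 1440.4 CPM, again higher with anti-PD1 in both genotypes, and Cd209d at 66.99, 26.2, 243 and 30.01 CPM, lower with anti-PD1 in both. In the spleen CD8+ libraries Cd209a was at 481 CPM in the 22 cells of the Siglech class, 856 in the 5 cells of the Cd209a class and 0.620 in the 129 Xcr1 cells, and the count of called genes was 2 with Siglech at most 1 and 2 in the stricter set. Of 5 tested cDC2 markers 4, Cd209a, Klf4, S100a4 and Cd7, were higher and 0 lower (median 1.95), and 3 of 10 pDC markers, Klk1, Ly6d and Tcf4, were higher. The cDC2 list summed to 177, 581, 349.9 and 784 CPM with Cd7 the most abundant. Gsr, which reduces glutathione, was higher by a ratio of 3.43-fold (95% counting interval 2.18 to 5.55) in summed UMIs. Rgl1, S100a4, Tmem176b, Klk1, Lag3, Cybb, Samsn1, Fgr and Fcer1g were also named, with log2 differences of 2.59, 1.95, 1.63, 1.62, 1.53, 1.43, 1.41, 1.39 and 1.30. The difference turned to -0.91 for Fcer1g in the stricter set and to -0.02 for Klk1 without Aire-/- anti-PD1. Hspa1a, Gm6377 and Ifi205 were lower (-1.88, -1.03 and -0.75). Ltb, Il2rg and Klrd1 led 6 higher genes that were not higher in gated cells than in other barcodes. S100a4 had 1.10 times the level of other barcodes.

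Other gates meant for dendritic cells give levels for comparison in the same libraries. A cDC2 gate held 70 cells (25 in tumor CD45+, 0 in tumor CD8+, 39 in spleen CD45+ and 6 in spleen CD8+). It kept the other conditions of the first gate but needed 0 UMIs of Xcr1 and Clec9a. At least 1 UMI of Cd209a, Clec10a, Mgl2 and Clec4a4 together was required, with 0 of Fcgr1 and at most 1 of Siglech. A gate for mature dendritic cells, with at least 2 UMIs of Ccr7 and 1 of Fscn1, held 108 (70, 29, 1 and 8). The monocyte gene Lyz2 was at 3494 CPM in the cDC2 gate and 417 in the gated cells, and Cst3 at 2983 and 18077 CPM. Naaa was at 693 CPM in the gated cells, 93.9 in the cDC2 gate and 8.99 in mature dendritic cells, and Irf8 at 1659.5, 96.4 and 1285 CPM. Wdfy4 was at 262, 101 and 22.8 CPM and Itgae at 73.0, 7.42 and 1.38 CPM. Cd274 was at 71.2, 71.7 and 701 CPM and Cxcl9 at 352, 105 and 446 CPM. These levels are pooled over libraries that hold the classes in different proportions. In the tumor CD45+ libraries alone, Irf8 was at 1146 CPM in the gated cells and 1629.8 in mature dendritic cells, and Cxcl9 at 639 and 500.1 CPM, the reverse of the pooled order for both genes. Against the cDC2 gate, Cd274 was at 175 and 127 CPM in tumor CD45+ and 9.16 and 31.9 in spleen CD45+ libraries, and Cxcl9 at 639 and 76.9, and 58.6 and 145 CPM. No test was made between classes for these levels.

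Whether the tumor against spleen difference differs between the gated cells and the cDC2 gate was tested in the CD45+ sort with a minimum of 5 cells, lowered after the data were seen because no tumor library held 10 cells of the cDC2 gate. Of 2553 genes 11 (0.431%) had an interaction at an adjusted p under 0.05. The cDC2 gate, unlike the first, left out cells with an Fcgr1 UMI or with 2 or more Siglech UMIs. Fcgr1 is itself on the interferon-gamma list, and what this condition contributes to the interactions was not tested. Counts with Siglech at most 1 in both gates are given below. Ifitm1 was at 2688 CPM in tumor and 3.66 in spleen for the gated cells, against 1559 and 76.2 for the cDC2 gate (log2 interaction 4.93 ± 0.72 (SE), adjusted p = 0.0136). Ltb, a lymphotoxin subunit gene, was at 29.3 and 16.5 CPM against 47.3 and 464 (log2 interaction 4.01 ± 0.62 (SE), adjusted p = 0.0136). Bst2, a pDC marker, had a log2 interaction of -1.89 ± 0.34 (SE), adjusted p = 0.0232. With the same minimum the count was 16 with Siglech at most 1, and 0 by edgeR in the stricter set (169 at an unadjusted p under 0.05), for which DESeq2 was not run.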

How the data were processed

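The authors' deposited files hold a UMI count for each gene and cell barcode, made with Cell Ranger, for 16 libraries: tumor and spleen, CD45+ and CD8+ sort, Aire+/+ and Aire-/-, anti-PD1 and isotype. The counts were checked to be whole numbers. The gene symbol was taken from the name of each feature, and features of 1 symbol were summed, from 25127 features to 24495 symbols. Each barcode in the files was used, no doublets were removed, and an alternative left out gated cells above 2 times the median UMIs of their library. Gated cells were chosen by thresholds on raw UMIs, and the thresholds, the gene lists and the comparisons were set before the data were examined, but with earlier results from these data known.

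UMIs were summed over the gated cells of each library and compared by the quasi-likelihood F-test of edgeR 4.0.16 in R 4.3.3, with TMM normalization, filterByExpr and Benjamini-Hochberg adjustment over all genes tested. The threshold was an adjusted p of 0.05. Libraries with under 10 gated cells were left out with their partner, and at least 3 complete pairs were needed. Tissue and sort were compared with the group of mice as block. Genotype and treatment were compared in 4 libraries with the other factor as covariate, in spleen in the CD8+ sort, since the 2 sorts come from the same mice. The SE is the log2 difference divided by the square root of F. Levels are UMIs per 1000000 of the summed UMIs (CPM). Genes of the gate were left out of all tests. DESeq2 1.42.0, other filters and scalings, stricter gates, thinning to 3000 UMIs and leaving out each group of mice or library were run as alternatives.

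Named genes were, for each comparison and direction, the 12 called genes with the largest log2 difference among those with a mean of at least 50 CPM on the higher side and a higher level in gated cells than in the other barcodes of the same libraries. The 3 largest called genes that failed the last condition are named as such. A fixed set of cDC1, chemokine and checkpoint genes was always reported. Gbp2, Isg15, Fos, Slc2a1, Cd86 and the other genes named from lists were chosen after their values were seen. Shares were compared by exact permutation of 4 against 4 libraries, and, in an alternative added after the data were seen, by sign flips within the 4 groups of mice. Python 3.11.15 with numpy 2.4.6, scipy 1.17.1, pandas 2.3.3 and matplotlib 3.10.9 was used for the rest. Of the genes on the lists, 9 are absent from the files under these symbols (Ighd, Ighm, Igkc, Nectin2, Plpp1, Trac, Trbc1, Trbc2 and Vsir). Results for a few genes are left out because the genes are withheld for evaluations.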

Additional observations from a re-analysis of the deposited data

Results flagged for a closer look

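In each group of 4 libraries, 1 library lying far from the other 3 was looked for in 64 values, and 10 (15.6%) were so, where chance gives about 1 in 20. In 5 of the 10 the other 3 libraries were at 0, where any value above 0 lies apart, so for these the chance rate does not apply. In the tumor CD45+ libraries the summed NK cell markers were at 1919 CPM in Aire-/- anti-PD1 against 248 to 382 in the other 3, and the neutrophil markers at 2.04 CPM in Aire-/- isotype against 0. In the tumor CD8+ libraries 20% of the gated cells of Aire+/+ isotype had an Xcr1 UMI against 0% in the other 3, and the summed T cell markers of Aire-/- anti-PD1, which held 2 gated cells, were at 2105 CPM against 480.0 to 746.

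In the spleen CD45+ libraries the cDC1 markers outside the gate summed to 9876 CPM in Aire+/+ isotype against 4831 to 5553 in the other 3. Erythroid markers were at 14.4 CPM in the same library against 0, and tumor or stroma markers at 10.0 CPM in Aire-/- anti-PD1 against 0. In the spleen CD8+ libraries the median UMIs of the gated cells were 11600.5 in Aire+/+ isotype against 8724 to 9176. Monocyte markers summed to 2477 CPM in Aire-/- anti-PD1 against 1337 to 1496, and neutrophil markers to 5.19 CPM in the same library against 0. The causes were not tested.

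For 11 genes the tumor against spleen difference in the CD45+ sort differed between the gated cells and the cDC2 gate by the test of the interaction. The cDC2 gate also differs in its conditions on Fcgr1 and Siglech, as given above. The interaction was negative on the log2 scale for Olfm1 (-2.52 ± 0.42, SE), Jund (-2.05 ± 0.39) and Bst2 (-1.89 ± 0.34). It was positive for S100a11 (1.14 ± 0.23), Cd300lf (3.27 ± 0.58), Ltb (4.01 ± 0.62), Ifit3 (4.47 ± 0.79), Ifitm1 (4.93 ± 0.72), Gbp2 (5.46), Tgm2 (5.81 ± 1.03) and Slfn1 (7.56 ± 1.02). Slfn1 had 0 UMIs in the gated cells of the spleen, so its fitted value depends on the prior count and is no bound.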

How the results depend on the processing

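The alternatives with a cutoff on Siglech, with at least 3 UMIs of Xcr1 and Clec9a, with both sorts summed, with a minimum of 5 gated cells or with paired shares were chosen after seeing the data, and the rest before. Fits with a cutoff on Siglech or in the stricter set used a minimum of 5 gated cells, so they can also differ from the first fit in that minimum and in the pairs used. The cause of the changes below was not tested. Of 1320 values of the 106 results for genes named by the rule, 883 kept their direction and their call, 434 kept the direction without the call and 3 reversed. In tumor against spleen 320 of 323 values kept both, with 4 of its 24 named genes (1600010M07Rik, Hpgd, Hs3st1 and Nr4a3) not tested in some alternatives, while in each of the other 5 contrasts 0 named genes were called under every alternative in which they were tested.

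Shares of gated cells kept their direction under all alternatives run, and stayed on the same side of the threshold under all but the unpaired ones on Siglech. With Siglech at most 1 the differences passed at 0.636 (tissue in CD45+), -1.33 (tissue in CD8+), 0.927 (sort in spleen) and -1.04 (sort in tumor) points, and in the stricter set at -1.06, 0.781 and -0.437 for the last 3. Leaving out each group of mice gave 0.471 to 0.871, -1.42 to -1.11, 0.856 to 1.32 and -1.12 to -0.603, where an exact permutation test of 3 against 3 libraries cannot go below p = 0.1. With the groups of mice paired by sign flips, an alternative added after the data were seen, the two-sided exact p cannot go below 0.125. The adjusted p was then 0.25 for each comparison, 0.125 for each with Siglech at most 1, and in the stricter set 0.5 for tissue in CD45+ and 0.167 for the other 3, so none passed.

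The count of 556 genes for tumor against spleen was 302 by DESeq2, 309 in the stricter set, 1481 with both sorts summed and 1051 with both sorts in the stricter set, and 248 to 766 with a group of mice left out. The sort count of 63 in spleen was 16 by DESeq2, 127 with all genes of at least 1 UMI, 5 without the block, 130 with a minimum of 5 cells (4 pairs in place of 3), 186 with that minimum and Siglech at most 1 (4 pairs) and 31 with that minimum in the stricter set (3 pairs). It was 11 to 105 with a group of mice left out, and 0 by edgeR with the UMI cap (207 at an unadjusted p under 0.05).

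The genotype count of 43 in tumor was 0 by DESeq2 (56 unadjusted), and by edgeR 24 with library totals, 70 with all genes and 73 with the UMI cap. It was 0 by edgeR without covariate, after thinning and with Siglech at most 1 (323, 64 and 241 unadjusted), 31 in the stricter set and 0 to 193 with a library left out. The treatment count of 24 in tumor was 3 by DESeq2, 13 with library totals, 49 with all genes, 1 without covariate, 13 with another cDC1 marker needed, 1 after thinning, 2 with Siglech at most 1, 22 in the stricter set and 2 to 113 with a library left out. The genotype count of 97 in spleen was 12 by DESeq2, 12 without covariate, 15 with another marker, 10 after thinning, 12 with Siglech at most 1, 18 in the stricter set and 16 to 130 with a library left out, and 0 by edgeR with at least 2 UMIs of Xcr1 and Clec9a (195 unadjusted). The treatment count of 36 in spleen was 1 by DESeq2, 16 with library totals, 3 with another marker, 2 with Siglech at most 1 and 2 in the stricter set. It was 0 by edgeR without covariate, with at least 2 UMIs and after thinning (175, 148 and 70 unadjusted), and 0 to 118 with a library left out. Fits without a library of these 4 have 3 libraries and no covariate, and the lone library of a group is assumed to vary like the others. The interaction count of 11 was 0 by edgeR in the stricter set (169 unadjusted).

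The reversed values were Pltp with treatment in tumor at Siglech at most 1 (-0.49), Klk1 with treatment in spleen without Aire-/- anti-PD1 (-0.02 to 3.29 over the libraries left out), and Fcer1g with treatment in spleen in the stricter set (-0.91).

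Not run, for want of gated cells, were tumor against spleen in the CD8+ sort and CD8+ against CD45+ in tumor with their alternatives, the interaction with a minimum of 10, and, for tumor against spleen in CD45+ and the sort in spleen, at least 2 UMIs, another marker and thinning. At least 2 UMIs was also not run for genotype and treatment in tumor. With 2 to 68 gated cells and 1 library per condition, genes at low levels and differences between mice cannot be resolved, and counts in the contrasts of 4 libraries rest on 1 residual degree of freedom.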
